A study of Rattus norvegicus with 16 samples.

Results

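The genes described here are 10 genes of the extracellular matrix and of proteoglycans in rat hippocampal slice cultures: Fn1, Col1a1, Col1a2, Col3a1, Dcn, Vcan, Bcan, Ncan, Ptprz1 and Reln. They were chosen by gene symbol, with earlier results of these arrays known, from 10411 genes measured. They are represented by 19 of the 15866 probe sets tested, a probe set being a group of short array probes that reads 1 transcript. For the 6 genes with several probe sets, the one with the highest mean level represents the gene, and the other 9 are given as well. Levels are therefore a description of chosen genes, and the counts below are read beside the same counts over all probe sets.

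RNA came from the CA1 and CA3 fields of organotypic hippocampal slice cultures, which are slices of brain kept alive in a dish so that the local layers of neurons and glia persist. The study followed the response of both fields to oxidative stress over 4 time points. The groups were CA1 and CA3, each at T0, 30 min, 3 h and 12 h, with 2 biological replicates in each of the 8 groups and 16 arrays in all. The labels do not say whether replicates came from separate animals or cultures, so a p-value measures only the spread between these samples, which may be technical. Which agent and dose were used, how T0 relates to the exposure, and the strain and age of the rats were not stated in the labels.

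The matrix of the brain differs from that of connective tissue. Fibrillar collagens, fibronectin and decorin are made mainly around blood vessels and in the meninges. The space between neurons and glia is instead filled with hyaluronan and the chondroitin sulfate proteoglycans that bind it, among them versican, brevican and neurocan, which also form the perineuronal nets around some neurons. Reelin is a secreted glycoprotein of Cajal-Retzius cells and interneurons that guides the layering of the hippocampus during development and modulates synapses later.

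Values are log2 expression values, so a difference of 1 is a 2-fold difference. Array medians lay between 5.811 and 5.938, and replicate arrays correlated at 0.911 to 0.969 across probe sets. The arrays stood apart in the signal of control transcripts that are spiked in for labelling. The T0 arrays had a mean log2 spike signal of 6.27 to 6.85 and the 30 min arrays 4.1 to 6.68. It was 5.43 to 6.3 on the 3 h arrays and 4.3 to 5.3 on the 12 h arrays. In an alternative, replicate 2 of 30 min and of 12 h in both fields, the low-spike arrays, were left out. The 12 h arrays that were kept had 5.3 in CA1 and 5.23 in CA3, still below all T0 arrays. This alternative therefore does not remove the difference in spike signal between 12 h and T0. The 3' minus 5' difference of the Gapdh control probe sets, a sign of RNA length, was 1.93 to 3.08 at T0, 1.47 to 2.77 at 30 min, 1.63 to 3.93 at 3 h and 1.29 to 3.02 at 12 h. It was higher on replicate 2 in all 8 groups and highest on both replicate 2 arrays of 3 h, at 3.93. As a check of the fields, Wfs1, a marker of CA1, was higher in CA1 in 8 of 8 same-numbered pairs by 0.44 ± 0.14 (SE over pairs, adjusted p = 0.246). Grik4, a marker of CA3, differed by -0.83 ± 0.15 and was higher in CA1 in 1 of 8 pairs (adjusted p = 0.0818). Both were chosen after their values were seen, and neither passed the limma test.

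Fn1 was the one member of the 10 that passed the limma test. It fell at 12 h, where 2.07% of all probe sets passed. The call was lost in a limma fit of averaged same-numbered CA1 and CA3 arrays (adjusted p = 0.249), where 0% of all probe sets passed. Reln, Vcan and Ptprz1 had all 4 arrays of 12 h below all 4 arrays of T0, as did 8% of all probe sets, with changes that did not pass. Dcn had its 4 highest values on the CA1 arrays of 30 min and 12 h. The 3 fibrillar collagen chains varied together between arrays, while Bcan and Ncan differed from T0, averaged over both fields, by at most 0.6 in size.

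Fn1 encodes fibronectin, an adhesive glycoprotein that links integrins on the cell surface to collagen. On the T0 arrays it had log2 values of 10.27 and 10.27 in CA1 and 9.25 and 10.58 in CA3. At 30 min it had 9.25 and 8.75 in CA1 and 8.11 and 8.29 in CA3. At 3 h it had 7.92 and 7.61 in CA1 and 7.68 and 7.94 in CA3, and at 12 h it had 8.44 and 6.35 in CA1 and 8.22 and 7.20 in CA3. All 4 arrays of each later time lay below all 4 arrays of T0, although at 30 min the highest CA1 array and the lowest T0 array were both 9.25 after rounding. Of all probe sets, 3.66% lay below T0 in this way at 30 min, 3.69% at 3 h and 8% at 12 h.

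Averaged over both fields, Fn1 fell at 12 h by 2.54 ± 0.43 on the log2 scale (SE, 4 arrays against 4), which is 5.83-fold, with adjusted p = 0.0209 in limma. It was 1 of 10 members past the threshold of adjusted p under 0.05 there, where 2.07% of all probe sets passed (328 probe sets, 133 higher and 195 lower). The change was -2.31 at 3 h (adjusted p = 0.0907) and -1.5 ± 0.43 at 30 min (adjusted p = 0.357), where 0.183% and 0.107% of all probe sets passed and no member did. At an unadjusted p under 0.05, Fn1 and Reln passed at 30 min and at 3 h, and 5 members (Fn1, Reln, Vcan, Ptprz1 and Dcn) at 12 h. Of all probe sets, 7.46%, 9.09% and 18.2% did so at 30 min, 3 h and 12 h. The 3 later times share the same T0 arrays. Field by field at 12 h, Fn1 differed by -2.88 ± 0.61 in CA1 (adjusted p = 0.117) and -2.21 ± 0.61 in CA3 (adjusted p = 0.391), with 0 members passing in either. Of all probe sets, 0.208% passed in CA1 and 0.0063% in CA3. The difference between these changes was -0.67 (95% interval -2.59 to 1.25, adjusted p = 1).

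The limma fit above counts same-numbered CA1 and CA3 arrays as independent, although their deviations from group means correlated at 0.57 to 0.67. Its SE and p for a change over time may therefore be too small. The call for Fn1 was lost in a fit of pair means. With same-numbered CA1 and CA3 arrays averaged into pairs, the change at 12 h was -2.54 ± 0.5 with adjusted p = 0.249, in a fit where 0% of all probe sets passed and 1664 had an unadjusted p under 0.05. The call was also lost without CA1 T0 replicate 1 (adjusted p = 0.0565), CA1 T0 replicate 2 (0.088), CA3 T0 replicate 2 (0.0843) or CA3 12 h replicate 2 (0.101), with changes of -2.54, -2.54, -2.21 and -2.29. Leaving out the low-spike arrays (replicate 2 at 30 min and at 12 h), it was -1.77 (adjusted p = 0.229), and with the spike signal as a covariate -2.11 (adjusted p = 0.335). Over all 28 alternatives the change ranged from -3.06 to -1.77 and the adjusted p from 0.00625 to 0.335, and 20 passed.

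Markers of some cell types moved with the fall of Fn1. For 6 measured markers of dividing cells, the mean log2 level was 5.12 to 5.66 on the 12 h arrays, against 7.37 to 8.15 on the T0 arrays, and 6 of 6 fell (Cdk1, Ccnb1, Mki67, Kif15, Top2a and Ccnb2). For 8 microglial markers the level was 6.03 to 7.35 at 12 h, against 7.95 to 8.59 at T0, with all 8 changes below 0 and 3 of them past the threshold (C1qc, C1qa and Ptprc). Leaving out the low-spike arrays, 0 of 6 and 0 of 8 of these markers passed, with median changes of -1.93 and -1.34. With all arrays the medians were -2.2 and -1.95. In that fit of fewer arrays no member passed at 12 h either, and the share of all probe sets passing is not given. The lost calls are therefore not read as a result about these markers. For 8 markers of fibroblasts, meninges and mural cells the level was 4.95 to 5.54 at 12 h, against 4.97 to 5.39 at T0, and 0 of 8 passed, also at an unadjusted p under 0.05. Both ranges lie under the median of 5.92 over probe sets. The part of these cells and of the labelling signal in the Fn1 result was not tested. In RNA of a whole field, fewer cells of a type and less RNA per cell cannot be told apart.

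**Figure D1:**
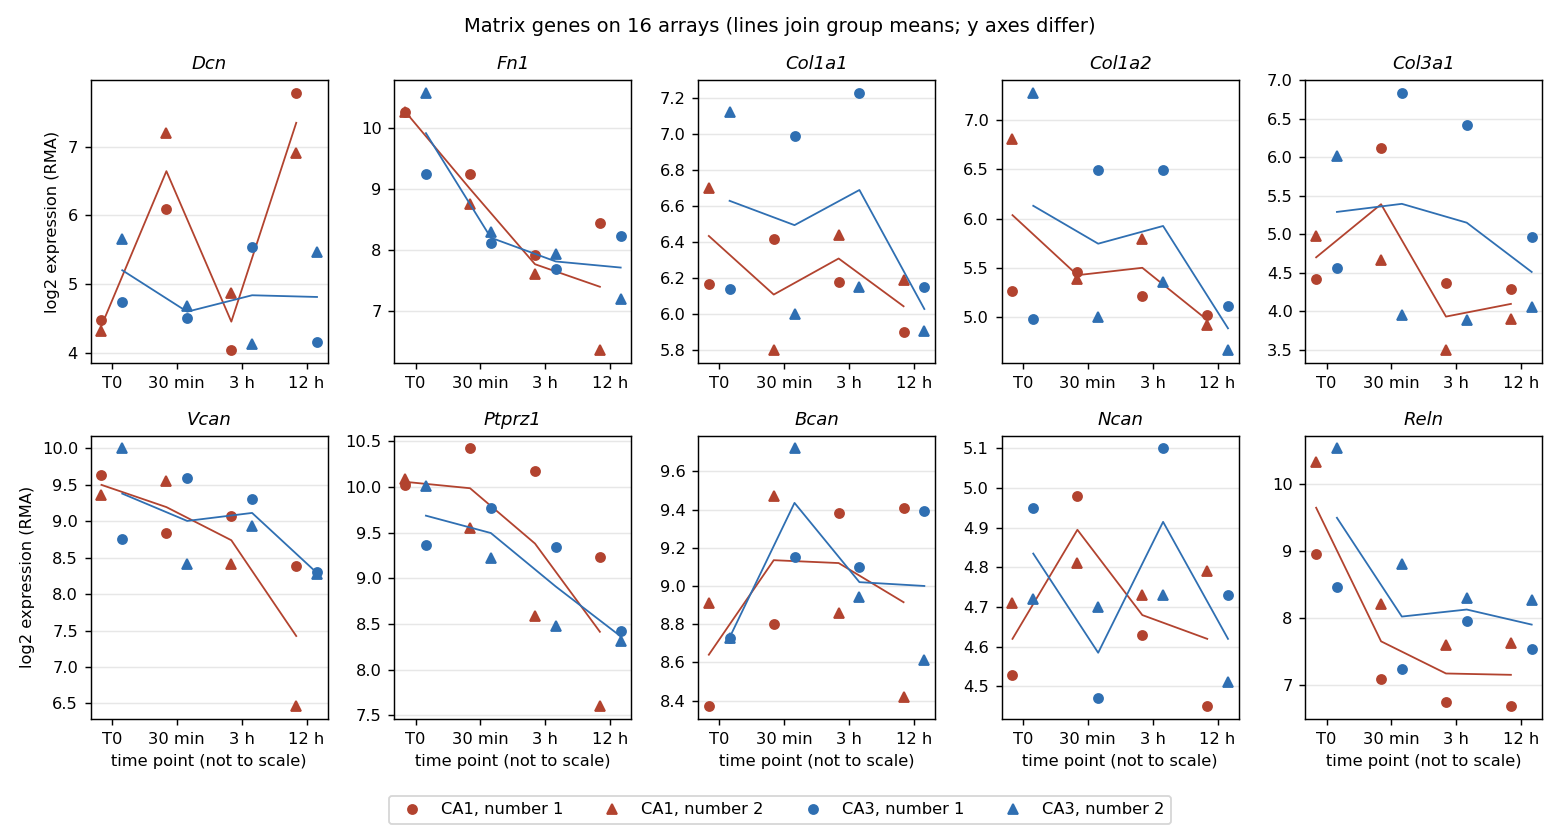
Log2 expression of the 10 genes on each of the 16 arrays. The x axis gives the time point and the y axis the log2 value, circles and triangles are replicates 1 and 2, and lines join the means of CA1 (red) and CA3 (blue). Fn1 lies between 9.25 and 10.58 at T0 and between 6.35 and 8.44 at 12 h, and Dcn reaches 6.09 to 7.79 on the CA1 arrays of 30 min and 12 h.

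Col1a1 and Col1a2 encode the chains of type I collagen, and Col3a1 the chain of type III collagen, which assembles with it in vessel walls. Col1a1 had log2 values of 6.17 and 6.70 at T0, 6.42 and 5.80 at 30 min, 6.18 and 6.44 at 3 h and 5.90 and 6.19 at 12 h in CA1. In CA3 it had 6.14 and 7.12 at T0, 6.99 and 6 at 30 min, 7.23 and 6.15 at 3 h and 5.91 and 6.15 at 12 h. The arrays of every later time overlapped with T0. At T0, 30 min and 3 h the 2 CA3 arrays lay further apart than any 2 group means of the gene.

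Col1a2 ran from 4.66 to 7.28 over the 16 arrays. Its 12 h arrays were the tightest, at 5.02 and 4.92 in CA1 and 5.11 and 4.66 in CA3, against T0 arrays of 5.26 and 6.81 in CA1 and 4.98 and 7.28 in CA3. Col3a1 ran from 3.49 to 6.84 and was high in CA3 replicate 1 at 30 min and 3 h (6.84 and 6.42), where replicate 2 had 3.95 and 3.88. The changes at 12 h were -0.5 ± 0.32 for Col1a1 (adjusted p = 0.485), -1.16 ± 0.54 for Col1a2 (adjusted p = 0.287) and -0.69 ± 0.71 for Col3a1 (adjusted p = 0.728). None of the 3 passed at any time.

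The 3 collagen genes followed each other across the 16 arrays. The Pearson correlation was 0.89 between Col1a1 and Col1a2, 0.76 between Col1a1 and Col3a1 and 0.67 between Col1a2 and Col3a1. These points share arrays, labelling and normalisation, and the values are a description.

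Dcn encodes decorin, a small leucine-rich proteoglycan that binds collagen fibrils and transforming growth factor beta. In CA1 it had log2 values of 4.47 and 4.31 at T0, 6.09 and 7.20 at 30 min, 4.03 and 4.87 at 3 h and 7.79 and 6.91 at 12 h. In CA3 it had 4.74 and 5.66 at T0, 4.51 and 4.68 at 30 min, 5.54 and 4.13 at 3 h and 4.16 and 5.46 at 12 h. The 4 CA1 arrays of 30 min and 12 h lay between 6.09 and 7.79, above the other 12 arrays, which lay between 4.03 and 5.66.

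In CA1 the change of Dcn was 2.26 ± 0.6 at 30 min, 0.06 ± 0.6 at 3 h and 2.96 ± 0.6 at 12 h (adjusted p = 0.107 at 12 h). In CA3 it was -0.61 ± 0.6, -0.36 ± 0.6 and -0.39 ± 0.6 at the same times. The difference between the changes of CA1 and CA3 was 2.87 ± 0.85 at 30 min, 0.43 ± 0.85 at 3 h and 3.36 ± 0.85 at 12 h (95% interval at 12 h 1.48 to 5.24). That test gave an unadjusted p of 0.00246 and an adjusted p of 1 at 12 h, and 0% of all probe sets passed in any of these 3 differences, with 133 probe sets at an unadjusted p under 0.05 at 30 min, 55 at 3 h and 71 at 12 h. Dcn in CA1 minus Dcn in CA3 came to -0.81 ± 0.6 on the T0 arrays and 2.05 ± 0.6 on the 30 min arrays. It was -0.39 ± 0.6 after 3 h and 2.54 ± 0.6 after 12 h. From the paired differences the adjusted p was 0.551 at 30 min and 0.485 at 12 h.

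Dcn has 1 probe set on the array, so no other probe set bears on this pattern. The 8 fibroblast, meningeal and mural markers had a mean log2 level of 4.97 and 5.10 in CA1 at T0, 5.38 and 5.19 at 30 min, 5.01 and 4.91 at 3 h and 5.13 and 4.95 at 12 h. Of 7 other small leucine-rich proteoglycans measured, 6 were higher in CA1 than in CA3 at 12 h and 1 lower, with a median of 0.15, and 0 passed. The lower one was Lum, which encodes lumican and differed by -2.36 ± 1.25 (adjusted p = 1). Its 12 h arrays of both fields were uneven, from 4.13 to 8.9, with a mean of 5.38 over all arrays. Lum is also among the 8 markers above. Against the other 9 genes, the Pearson correlation of Dcn ran from -0.29 to 0.06. The genes most like Dcn, taken as the 3 highest Pearson correlations over the 16 arrays among genes at or above the median level, were Arnt2 (Pearson 0.85, Spearman 0.68), Mpped1 (0.81, 0.66) and LOC102554253 (0.76, 0.83).

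**Figure D2:**
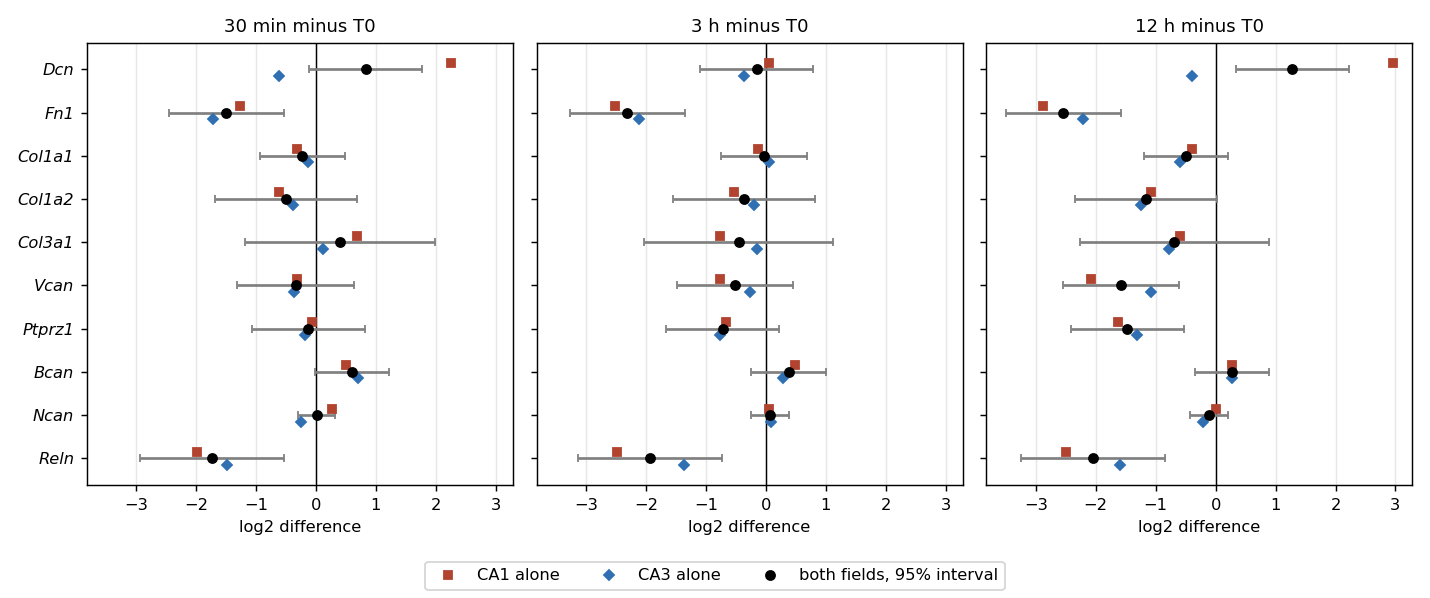
Change of each gene from T0 at 30 min, 3 h and 12 h, as log2 difference on the x axis. Black points with bars are the estimate over both fields with its 95% interval, red squares are CA1 and blue diamonds CA3. Fn1 lies at -2.54 at 12 h, and the CA1 and CA3 values of Dcn lie at 2.96 and -0.39.

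Vcan encodes versican, a large hyaluronan-binding chondroitin sulfate proteoglycan. Its T0 arrays had log2 values of 9.64 and 9.36 in CA1 and 8.76 and 10 in CA3. At 12 h it had 8.39 and 6.46 in CA1 and 8.31 and 8.27 in CA3, all below the T0 arrays. The arrays of 30 min (8.42 to 9.59) and 3 h (8.41 to 9.30) overlapped with T0. The change at 12 h was -1.58 ± 0.44 (adjusted p = 0.0934). CA1 replicate 2 at 12 h had the lowest value of all 16 arrays, and leaving out the low-spike arrays gave -1.09 (adjusted p = 0.423).

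Ptprz1 encodes a receptor tyrosine phosphatase of glia whose secreted form, phosphacan, is a chondroitin sulfate proteoglycan that binds pleiotrophin and cell adhesion molecules. Its T0 arrays had 10.02 and 10.09 in CA1 and 9.36 and 10.01 in CA3, and its 12 h arrays had 9.23 and 7.60 in CA1 and 8.42 and 8.31 in CA3. All 4 arrays of 12 h were below those of T0, by the narrow gap of 9.23 and 9.36 at its edge. The change at 12 h was -1.48 ± 0.43 (adjusted p = 0.104). At 30 min it was -0.13, and at 3 h -0.72. The 3 h arrays had 10.17 and 8.59 in CA1 and 9.34 and 8.48 in CA3, and without replicate 2 of 3 h, which had the highest Gapdh difference, the change was -0.11. Leaving out the low-spike arrays, the change at 12 h was -1.04.

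Bcan encodes brevican, a proteoglycan of the perineuronal net. It had log2 values from 8.37 to 9.72 over all arrays, with 8.37 to 8.91 at T0 and 8.42 to 9.41 at 12 h. Averaged over both fields, its difference from T0 was 0.6 ± 0.28 at 30 min (adjusted p = 0.682; 0.71 in CA3 alone), and at 12 h it was 0.27 ± 0.28 (adjusted p = 0.723). Ncan, which encodes neurocan, stayed between 4.45 and 5.10 on all 16 arrays. Its change at 12 h was -0.11 ± 0.14 (95% interval -0.42 to 0.2).

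Of the 10 genes, 4 have a mean log2 value under the median of 5.92 over probe sets: Dcn (5.28), Col1a2 (5.58), Col3a1 (4.81) and Ncan (4.72). The other 6 passed the filter on low values that was tried as an alternative. The tests above used no filter.

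Reln encodes reelin, which binds the receptors encoded by Vldlr and Lrp8. At T0 it had log2 values of 8.96 and 10.33 in CA1 and 8.46 and 10.53 in CA3. At 30 min it had 7.09 and 8.21 in CA1 and 7.24 and 8.80 in CA3. At 3 h it had 6.75 and 7.59 in CA1 and 7.96 and 8.29 in CA3, and at 12 h 6.68 and 7.62 in CA1 and 7.53 and 8.27 in CA3. Replicate 2 was the higher array in all 8 groups, and the arrays of 3 h and 12 h lay below those of T0.

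The change of Reln was -1.74 ± 0.54 at 30 min (adjusted p = 0.396), -1.93 at 3 h (adjusted p = 0.276) and -2.05 ± 0.54 at 12 h (adjusted p = 0.0831). At 12 h it was -2.5 in CA1 (adjusted p = 0.251) and -1.6 in CA3 (adjusted p = 0.749). Over 28 alternatives the change at 12 h ranged from -3.11, with the spike signal as a covariate, to -1.19, with the mean of its probe sets. The other Reln probe set in that mean had a low mean log2 level, 4.16. Over these alternatives the adjusted p ran from 0.00249 to 0.413, with 3 passing. Leaving out the low-spike arrays gave -2.46 (adjusted p = 0.328). For 5 measured markers of Cajal-Retzius cells and Reln-bearing interneurons, 0 passed at 12 h (1 at an unadjusted p under 0.05) and the median change was 0.07, or -0.07 without the low-spike arrays. Their mean log2 level was 6.10 to 6.78 at 12 h, against 6.21 to 6.32 at T0. Within the reelin pathway, 0 of 5 measured genes passed at 12 h, 0 also at an unadjusted p under 0.05, with 0.53 for Vldlr, a receptor, and -0.31 for Fyn, a kinase downstream of it.

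Promoter sequence, the 250 bases before the transcription start in RefSeq (assembly GRCr8), was matched for 5 of the 10 genes. It is shown for Reln and Vcan, whose arrays of 12 h lay below T0, and for Col1a2, as the collagen chain that varied with Col1a1. Capitals mark the CCAAT motif, the TATAAA motif and the GC box GGGCGG on either strand, so a copy on the opposite strand reads as its reverse complement. No marked motifs overlap. The Reln promoter lies at chr4:13628318-13628567 (+ strand), that of Vcan at chr2:22595956-22596205 (- strand, the first of its 2 entries) and that of Col1a2 at chr4:33518307-33518556 (+ strand).
Reln: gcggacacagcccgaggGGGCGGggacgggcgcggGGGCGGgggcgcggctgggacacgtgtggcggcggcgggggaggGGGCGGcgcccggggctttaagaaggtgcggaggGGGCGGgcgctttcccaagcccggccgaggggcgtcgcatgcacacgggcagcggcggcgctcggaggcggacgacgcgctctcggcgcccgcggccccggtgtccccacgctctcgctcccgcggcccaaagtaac
Vcan: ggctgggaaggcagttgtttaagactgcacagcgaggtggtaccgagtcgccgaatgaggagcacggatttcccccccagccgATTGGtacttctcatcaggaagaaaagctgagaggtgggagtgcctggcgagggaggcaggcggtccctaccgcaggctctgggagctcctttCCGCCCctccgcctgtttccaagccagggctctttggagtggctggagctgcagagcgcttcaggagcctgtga
Col1a2: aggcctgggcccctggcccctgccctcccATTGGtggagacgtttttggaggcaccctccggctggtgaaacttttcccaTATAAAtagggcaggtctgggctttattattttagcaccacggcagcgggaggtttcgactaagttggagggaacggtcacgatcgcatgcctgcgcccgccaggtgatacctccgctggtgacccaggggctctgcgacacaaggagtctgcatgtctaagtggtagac

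Reln had 4 copies of GGGCGG and no CCAAT or TATAAA, and 80.0% of its bases were G or C. The first Vcan entry had 1 CCAAT and 1 GGGCGG and its other entry, at chr2:22595858-22596107, 1 GGGCGG and no CCAAT, and Col1a2 had 1 CCAAT and 1 TATAAA. Over all 33465 promoters of this length, 30.5% held GGGCGG, 34.0% CCAAT and 12.9% TATAAA on either strand. TGANTCA, the AP-1 motif, was in 6.34% of all promoters and in none of these 3, and CAGAC, a Smad motif, was in 42.9% of all and 2 times in Col1a2. A match is a description of these letters.

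At 12 h, 8 members had a change below 0 and 2 above it. The median change was -0.92, against -0.02 over all probe sets, of which 54.5% were below 0. At 30 min and 3 h the medians were -0.18 and -0.41, against 0 and 0.05 over all probe sets. Leaving out the low-spike arrays, the members' median at 30 min turned to 0.09, and at 12 h it was -0.76. The members whose 4 arrays lay below all 4 T0 arrays were 1 at 30 min (Fn1), 2 at 3 h (Fn1 and Reln) and 4 at 12 h (Fn1, Vcan, Ptprz1 and Reln), where 3.66%, 3.69% and 8% of all probe sets did so. No member lay above T0 in this way. In CA1 alone, 0 members passed at 30 min and 3 h, where 0.0126% and 0.0063% of all probe sets passed, and in CA3 alone 0 members and 0% of probe sets passed at these times. At an unadjusted p under 0.05, 2 members passed in CA1 at each of these times and 1 in CA3. Of all probe sets, 4.96% and 4.56% did so in CA1 and 3.04% and 3.93% in CA3.

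Between the fields, no member passed in any contrast. Over the 4 times, CA1 minus CA3 was 0.85 ± 0.3 for Dcn, -0.48 ± 0.38 for Reln, -0.56 ± 0.5 for Col3a1 and 0.34 ± 0.3 for Ptprz1. The other 6 genes lay between -0.23 and 0.2. The adjusted p was 1 for each of the 10, and 0% of all probe sets passed over the 4 times or at any single time. At an unadjusted p under 0.05, 510 probe sets (3.21%) passed over the 4 times, Dcn among them. At single times, Dcn had such a p at 30 min and 12 h, where 2.04% and 1.29% of all probe sets did. In this unpaired fit no member had one at T0 or 3 h.

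Within a time, same-numbered arrays of CA1 and CA3 deviated together, so the field difference was also taken within pairs. In that fit 0.208% of all probe sets passed (33) and 0 of 10 members did, while Dcn, Col3a1 and Reln had an unadjusted p under 0.05, as did 10.6% of all probe sets. At single times, Dcn had such a p at 30 min, Col3a1 and Reln at 3 h, and Dcn and Reln at 12 h. In the difference of changes, Dcn had it at 30 min and 12 h and Reln at 3 h and 12 h. No member passed after adjustment, and the share of all probe sets is not given for these paired tests. Reln was lower in CA1 in 7 of 8 pairs by 0.48 on the log2 scale, with a standard error of 0.12 over pairs (adjusted p = 0.166). Col3a1 was lower in CA1 in 7 of 8 pairs (adjusted p = 0.386) and Ptprz1 was higher in 7 of 8 (adjusted p = 0.556). Dcn was higher in CA1 in 5 of 8 pairs (adjusted p = 0.322), by 1.45 to 3.63 in the 4 pairs of 30 min and 12 h.

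**Figure D3:**
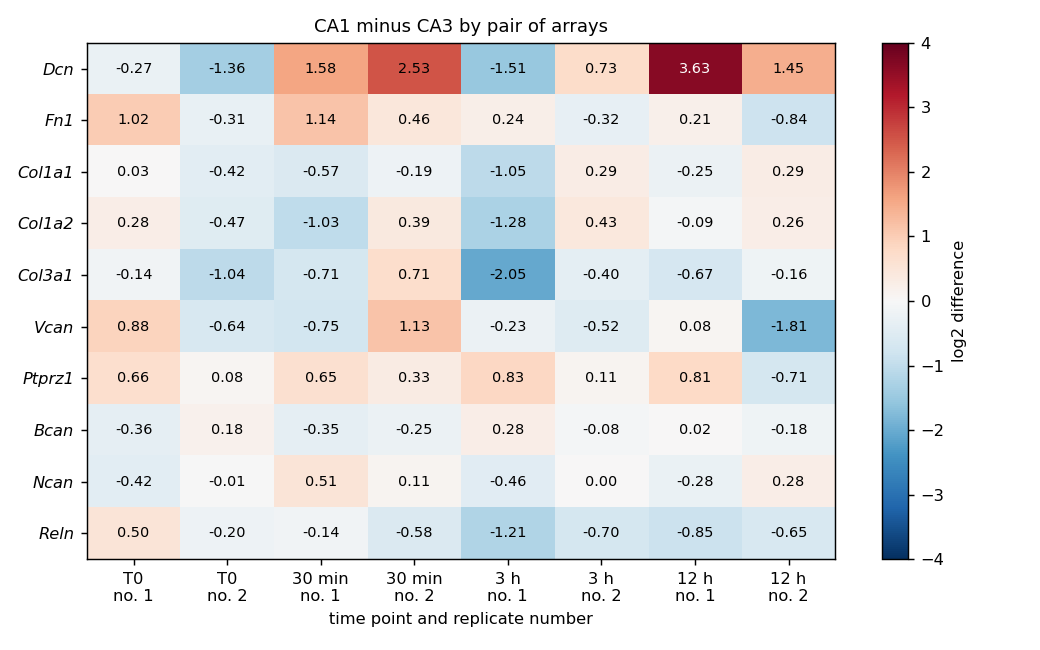
CA1 minus CA3 for each gene (rows) in the 8 pairs of arrays with the same time and replicate number (columns), as log2 difference. Red is higher in CA1 and blue is lower in CA1. The Dcn row holds 1.58 and 2.53 at 30 min and 3.63 and 1.45 at 12 h.

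Several members have more probe sets, and these gave smaller differences. The other 4 probe sets of Vcan differed by -0.82, -0.46, -0.22 and -0.11 at 12 h. The other probe set of Ptprz1 differed by -1.17 ± 0.83, that of Col1a2 by -0.76, that of Col1a1 by -0.16, that of Reln by -0.33 and that of Bcan by 0.22. Some of these read at a low level, against a median of 5.92 over probe sets. The Vcan probe sets at -0.22 and -0.11 had means of 3.66 and 3.69, and the other Reln probe set had 4.16. All 9 had the sign of the probe set that stands for the gene, and none passed. The Pearson correlation between a gene's probe sets over the 16 arrays was 0.76 for Col1a1, 0.88 for Col1a2, 0.85 for Ptprz1, 0.86 for Reln and 0.4 for Bcan. For Vcan it ran from 0.19 to 0.69.

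**Figure D4:**
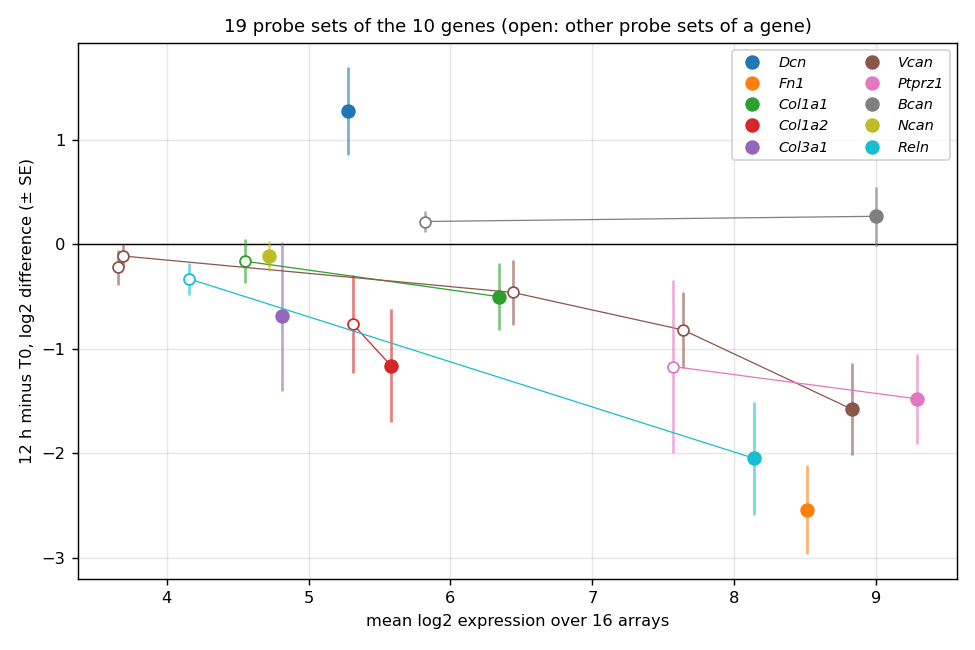
Change at 12 h against the mean log2 level over 16 arrays for the 19 probe sets of the 10 genes. Filled points stand for the gene, open points are its other probe sets, and bars are the standard error. The open points lie between -1.17 and 0.22.

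Among the other members, Fn1 had Pearson correlations of 0.75 with Ptprz1, 0.72 with Vcan and 0.64 with Reln over the 16 arrays, and Vcan and Ptprz1 had 0.78. By the same measure, the genes most like Fn1 were Rrm1 (Pearson 0.93, Spearman 0.81), Recql (0.92, 0.79) and Yme1l1 (0.91, 0.87). For Reln they were Ccnd1 (0.89, 0.84), Hmga1 (0.86, 0.73) and Fam114a1 (0.86, 0.73). For Vcan they were Tcf12, Pdia3 and Leprot (Pearson 0.88 to 0.89), and for Ptprz1 Cyfip1, Nfe2l2 and Acbd5 (0.95 each). The closest to Col1a1 were Polg (0.94), Nid2 (0.87) and Fhl3 (0.85), to Col1a2 St14 (0.93), Notch1 (0.9) and Col1a1 (0.89), and to Col3a1 Mmp16 (0.88), Acot1 (0.87) and Asah1 (0.87). For Bcan they were Slc12a9 (0.78), Park7 (0.73) and Slc48a1 (0.73), and for Ncan Gcnt3 (0.71), Hcrtr1 (0.69) and Chrm5 (0.69). These are the highest of 6169 or 6170 genes and are given as descriptions of these arrays.

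Of the genes around the members, 114 of 135 listed in 12 matrix groups were measured, and 0 passed in any of the 17 contrasts of limma. At 12 h, 21 of the 114 had an unadjusted p under 0.05, where 18.2% of all probe sets did. Of the 114, 85 lay below 0 at 12 h, with a median of -0.17. The groups furthest below 0 were matrix proteases and inhibitors, with a median of -0.9 and 10 of 12 below 0, and matricellular proteins, with -0.81 and 7 of 8. These medians were -0.51 and -0.45 without the low-spike arrays. Collagens other than the members had -0.44 (12 of 13 below 0), and the basal lamina group -0.37 (14 of 16). Collagen processing had -0.3, chondroitin sulfate synthesis -0.15, and the small leucine-rich proteoglycans 0.03. Other brain proteoglycans had -0.07, hyaluronan and link proteins -0.06, the ligands and partners of Ptprz1 0.02, reelin signalling 0.29 and transforming growth factor beta signalling -0.07.

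From each group the 2 genes with the largest difference at 12 h are named, so their spread over the groups follows from that choice. Postn, a matricellular protein that binds collagen, ran from 5.22 to 7.58 at 12 h, against 8.63 to 11.08 at T0, a difference of -3.17 ± 0.84 (adjusted p = 0.0844). Plau, the urokinase plasminogen activator, ran from 5.56 to 6.17 at 12 h, against 6.79 to 8.62 at T0 (-1.75 ± 0.41, adjusted p = 0.0566). Mmp3, stromelysin, differed by -1.54 ± 0.4 (adjusted p = 0.0758) and Ccn2, a matricellular growth regulator, by -2 ± 0.71 (adjusted p = 0.167). Mmp3 and Ccn2 had means of 4.61 and 5.08, under the median of 5.92 over probe sets, and Ccn2 ran from 5.28 to 9.09 at T0. Cd44, a hyaluronan receptor, differed by -1.31 ± 0.41 (adjusted p = 0.125). Of the collagens, Col5a3 differed by -0.75 ± 0.18 (adjusted p = 0.0673) and Col5a2 by -0.82.

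The nidogens Nid1 and Nid2, which join laminin to type IV collagen, differed by -1.04 and -1.07. Lox, which crosslinks collagen, differed by -0.86 ± 0.25 and Plod1, a lysyl hydroxylase, by -0.72. Of the Ptprz1 partners, L1cam, a neuronal adhesion molecule, differed by 0.9 ± 0.22 (adjusted p = 0.0705) and Ptn, pleiotrophin, by -0.78 ± 0.29 (adjusted p = 0.19). Chpf and Chsy1, which build chondroitin chains, differed by 0.64 and -0.57, and Has2, a hyaluronan synthase, by -0.41. Cspg4, the NG2 proteoglycan, and Spock1 differed by -0.58 and 0.34, and Fmod and Lum by 0.5 and 0.48. Mean log2 levels were low for Lox (4.31), L1cam (4.85) and Spock1 (4.11). Tgfbr1, a receptor of transforming growth factor beta, and Skil, which restrains its signalling, differed by -1.22 and 0.69.

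Other cell type markers at 12 h gave median changes of 1.72 for 4 markers of pyramidal neurons, -0.91 for 4 of oligodendrocyte precursors and -0.3 for 7 of astrocytes. They were 0.48 for 3 of GABAergic neurons, -0.08 for 5 of endothelial cells and -0.14 for 5 of choroid plexus, and 0 passed in each of these groups. At an unadjusted p under 0.05, 4 of 4 pyramidal, 2 of 4 oligodendrocyte precursor and 1 of 7 astrocyte markers passed, where 18.2% of all probe sets did. Leaving out the low-spike arrays, the median was 1.4 for pyramidal neurons, -0.51 for oligodendrocyte precursors, 0.14 for astrocytes, with its sign turned, and 0.02 for GABAergic neurons. The pyramidal neuron markers had a mean log2 level of 5.68 to 8.34 over all arrays. Their part in the changes of the matrix genes was not tested.

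**Figure D5:**
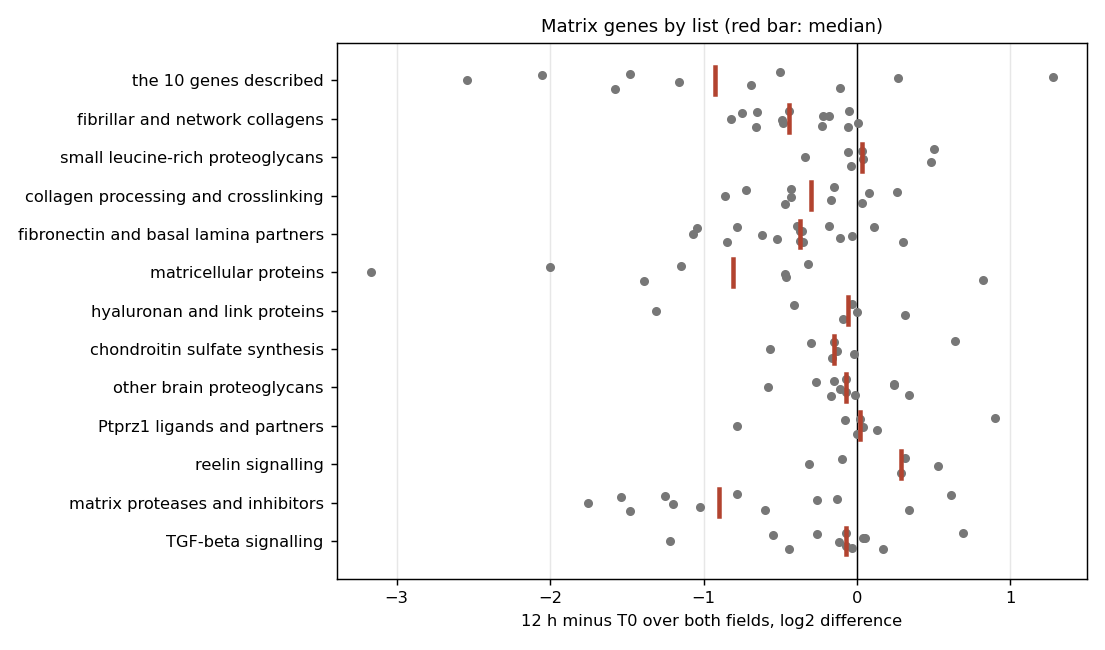
Change at 12 h over both fields for the measured genes of 12 matrix groups and for the 10 genes described (top row), as log2 difference. Each grey point is a gene and the red bar is the median of the group. The medians run from -0.92 for the 10 genes to 0.29 for reelin signalling.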

How the data were processed

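RNA of 16 samples was measured on Affymetrix rat arrays after 2 labelling cycles, per the labels' protocols. The deposited log2 values, 1 per probe set and array, came from RMA, per the submitters' processing notes. This method subtracts background, equalises the arrays and summarises probes, so a change in total mRNA cannot be seen. The RMA version is not given in the sources used here.

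Of 15923 probe sets, 57 controls were left out. limma 3.58.1 in R 4.3.3 was fitted to all 15866 others, with 8 group means and 8 residual degrees of freedom, for 17 contrasts. p-values were Benjamini-Hochberg adjusted over all probe sets, and the threshold was 0.05. The code was tested on simulated data. The spike signal is the mean of 12 control probe sets. The number of arrays limits the precision.

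The members, gene lists, markers and tests were chosen with earlier results of these data known. All members are named. Of each matrix list, none of which had a gene past the threshold, the 2 genes with the largest change at 12 h are named. The 3 genes most correlated with a member were taken among those at or above the median level.

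Pairing of same-numbered arrays was checked by correlating their deviations from group means. CA1 and CA3 of the same time correlated at 0.57 to 0.67 (4 of 4 pairs over 0.1), which was taken as pairing. Field differences were therefore also tested within pairs, and changes over time on pair means, with 4 residual degrees of freedom. T0 and later times correlated at -0.24 to 0.31, with 5 of 12 under 0.1, which was not. Alternatives were leaving out arrays, replicate blocks, 2 other scalings, a filter on low values, another variance prior, 2 covariates, only the groups of the contrast, and the mean of all probe sets. All 19 probe sets matched RefSeq by Entrez identifier. Sequences are from RefSeq, GRCr8.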

Additional observations from a re-analysis of the deposited data

How the results depend on the processing

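Over 28 alternatives, 1221 of 1293 recomputed values for single genes kept their direction and their side of the threshold, 51 reversed, and 0 of the reversed ones passed. Of the 47 results recomputed, only Fn1 at 12 h passed in the main fit, and it kept its call in 20 of 28. For the others, keeping the side of the threshold meant not passing. No alternative made a member pass in a contrast of CA1 with CA3, in CA3 alone or in a difference of changes. With the replicate number as a fixed term (replicate block), 1 member passed at 30 min (Reln), 2 at 3 h, 4 at 12 h (Fn1, Reln, Vcan and Ptprz1), and 1 (Reln) in CA1 at 3 h and at 12 h. The deviations of T0 and later arrays of the same number correlated at -0.24 to 0.31, which was not taken as pairing. The Gapdh difference and Reln were nevertheless higher on replicate 2 in all 8 groups. What the number marks is not stated in the labels, and the fit with this block is given as a description. With the replicate block by pair, without the low-spike arrays, with only the groups of the contrast and with the spike signal as a covariate, 0 passed at 12 h. With the Gapdh 3' minus 5' difference as a covariate, 4 passed at 12 h and 3 in CA1 at 12 h (Ptprz1, Fn1 and Dcn). Leaving out 1 array at a time, 0 to 1 members passed at 3 h (Fn1 without either CA1 array of 12 h) and 0 to 2 at 12 h (Vcan beside Fn1 without CA1 12 h replicate 1, Reln beside Fn1 without CA3 T0 replicate 1). Other than for the pair fit, the share of all probe sets that passed in these alternatives is not given. The counts are therefore not read as a result about the members. The causes were not tested.

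Differences that reversed, none of them past the threshold, were these. Taking the mean of all probe sets gave Vcan 0.04 for CA1 minus CA3 over 4 times and 0.06 at 3 h, and Col1a1 0.01 at 3 h. Without the low-spike arrays, Col1a1, Ptprz1 and Ncan had 0.18, 0.23 and -0.01 at 30 min. With the spike covariate they had 0.08, 0.17 and -0.04, Col1a1 and Col3a1 had 0.12 and 0 at 3 h, and Col3a1 had 0.64 at 12 h. Without replicate 2 of 3 h, Col1a1 and Col3a1 had 0.17 and 0.4 at 3 h, and the change of Dcn in CA1 minus that in CA3 was -0.69. The Gapdh covariate gave Col1a1 0.01 at 3 h, and cyclic loess gave Ncan -0.02 at 3 h. Leaving out 1 array at a time, CA1 minus CA3 over 4 times ran from -0.06 to 0.46 for Fn1, -0.47 to 0.1 for Col1a2, -0.47 to 0.01 for Vcan, -0.22 to 0.03 for Bcan and -0.08 to 0.01 for Ncan, and Dcn at 3 h ran from -1.09 to 0.32. The change at 30 min ran from -0.48 to 0.02 for Col1a1, -1.07 to 0.08 for Col1a2, -0.32 to 1.12 for Col3a1, -0.34 to 0.09 for Ptprz1 and -0.05 to 0.07 for Ncan. The change at 3 h ran from -0.5 to 0.2 for Dcn, -0.3 to 0.24 for Col1a1, -0.94 to 0.21 for Col1a2, -1.09 to 0.18 for Col3a1 and -0.02 to 0.16 for Ncan, and the Dcn difference of changes from -0.28 to 1.13.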
